A study of Mus musculus with 9 samples.

Results

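The genes described here are 7 that mark mast cells and basophils, Mcpt8, Hdc, Cpa3, Fcer1a, Ms4a2, Il1rl1 and Cma1, read through every probe that the array's annotation gives one of these symbols. That took in 11 of the 45281 probes and 6 of the 19057 genes named on the array. Il1rl1, the receptor ST2 of the alarm cytokine Il33, has no probe named for it in the annotation used, so its transcript is not analysed here. The arrays hold RNA of sorted LSK cells, the bone marrow fraction that lacks lineage markers, carries Sca-1 and Kit, and contains the stem cells and earliest progenitors. All mice were male, of the C57BL/6 strain and 12 weeks old. Every animal, controls included, had been given 5-fluorouracil at 150 µg/g, and marrow was taken 6 days later. The groups were 4 arrays from mice without Socs2 (Socs2-/-) and 5 from wild-type mice. The labels do not give the deleted part of Socs2, nor whether an array holds 1 mouse or a pool, so the p-values cover no more than array-to-array spread, part of which may be technical.

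Mast cells and basophils are granule-bearing cells that take part in the allergic response. They bind IgE through a high-affinity receptor, and when it is crosslinked they release histamine and proteases stored in granules. Both lineages arise in the marrow from progenitors that express GATA2, and mast cells keep Kit, one of the markers of the LSK gate, while basophils lose it. Transcripts of Hdc and Cpa3 are also known from early multipotent and myeloid-biased progenitors of the mouse, so these genes are not exclusive to mature cells.

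Values are the authors' deposited log2 values. A value of 7.5 was taken as the level below which a probe cannot be told from the background of the array, and a gene was tested when its probe exceeded it on at least 4 of the 9 arrays. Between 31.0% and 35.4% of all probes lay above 7.5 on an array. Knockout arrays 1 and 2 stood apart, with 31.1% and 31.0%, and had median correlations with the other arrays of 0.68 and 0.65 over all probes, against 0.78 to 0.82 for the other 7 arrays. The members and the related genes named are therefore also given without them. In the targeted gene, Socs2, the brighter probe read from 9.38 to 10.36 in wild type and from 6.58 to 6.80 in the knockout (limma adjusted p = 0.036).

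Of the 6 genes with a probe, the brightest probes of Mcpt8, Hdc and Cpa3 passed the filter, and those of Fcer1a, Ms4a2 and Cma1 did not, a share of 3 in 6 against 44.8% of all named genes. None of the 3 tested genes was called between genotypes (limma, 0 of 3 at adjusted p under 0.05, and 0 of 3 at unadjusted p under 0.05). Over all 8543 genes the share called was 0.0117%, which is Socs2 alone, and the share at unadjusted p under 0.05 was 10.2%. In a fit over every probe without a filter, 0 of the 11 member probes were called, against 0.0221% of all 45281. Two-sided exact permutation tests over all splits of the arrays into 4 and 5 are given for single probes, and their smallest possible p is 0.0159. The 11 probes gave 99 readings on the 9 arrays, of which 36 lay above 7.5. These were 16 of 44 in the knockout and 20 of 55 in wild type, or 36.4% in each.

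**Figure D1:**
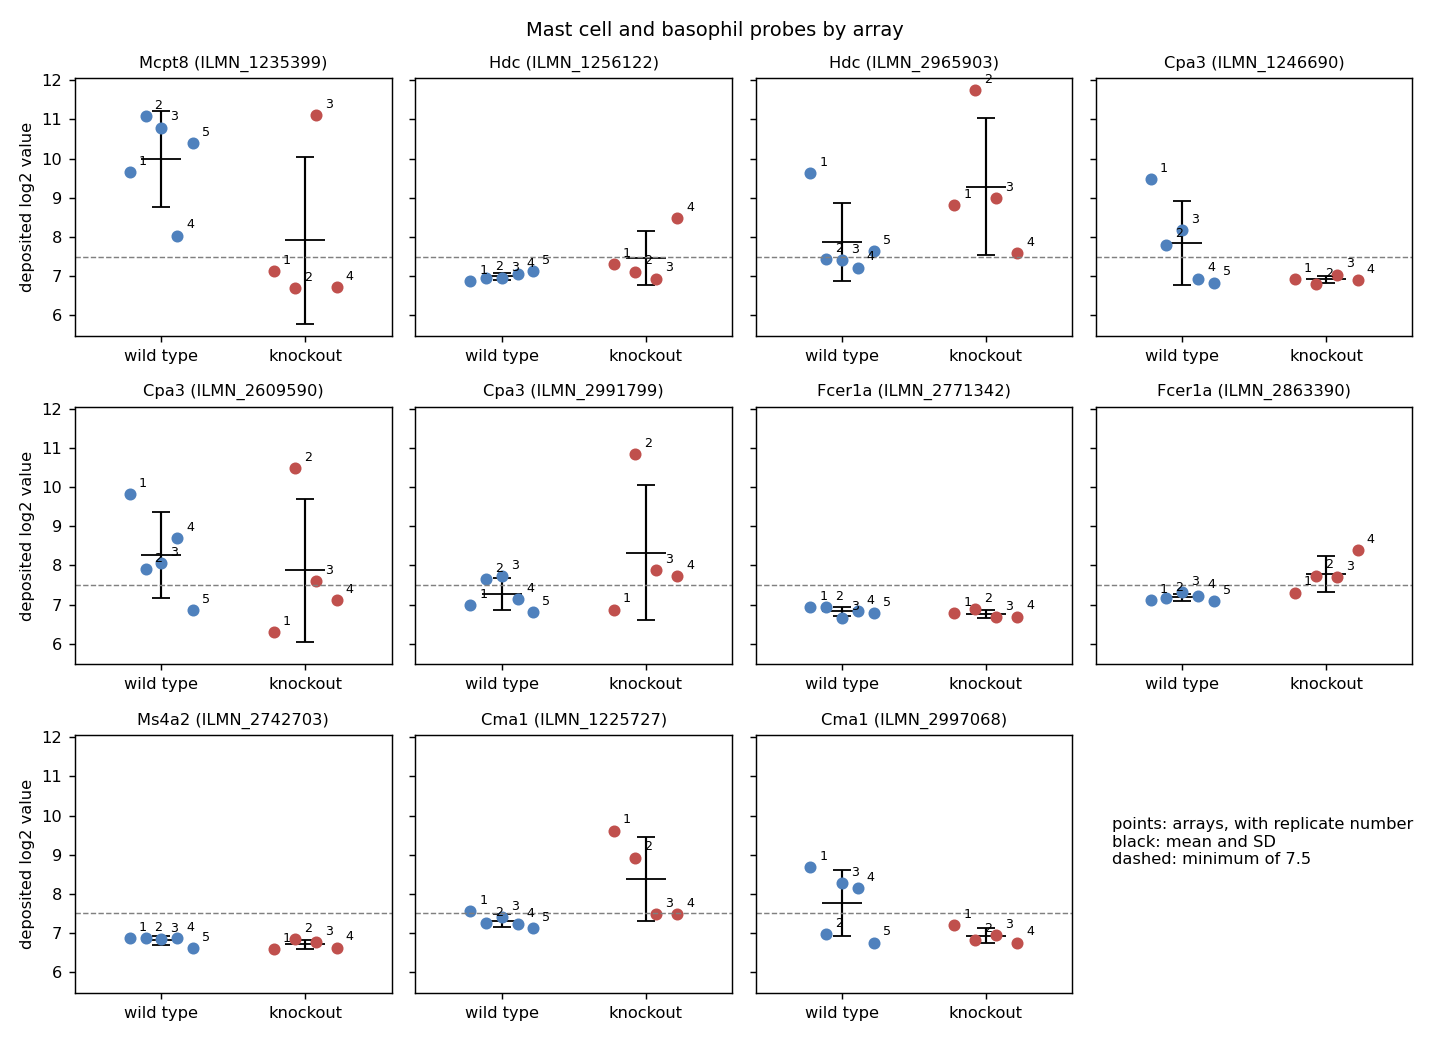
Deposited log2 value (vertical axis) of each of the 11 probes on the 5 wild-type and 4 Socs2 knockout arrays. Points are arrays with their replicate number, black marks are the group mean and SD, and the dashed line is the minimum of 7.5. Mcpt8 lies above the line on all 5 wild-type arrays and on 1 of 4 knockout arrays, while the Ms4a2 probe and 1 Fcer1a probe stay under it on all 9.

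For the 3 tested genes the promoter is shown, from 250 bases before to 50 after the RefSeq start in build GRCm38.p6, because they are the members whose level could be compared between genotypes. Capitals mark AGATAA, a form of the GATA factor motif, searched on both strands (TTATCT on the other strand). The Mcpt8 window is chr14:56085148-56085447, the Hdc window chr2:126618629-126618928 and the Cpa3 window chr3:20242132-20242431, all read on the minus strand.
Mcpt8: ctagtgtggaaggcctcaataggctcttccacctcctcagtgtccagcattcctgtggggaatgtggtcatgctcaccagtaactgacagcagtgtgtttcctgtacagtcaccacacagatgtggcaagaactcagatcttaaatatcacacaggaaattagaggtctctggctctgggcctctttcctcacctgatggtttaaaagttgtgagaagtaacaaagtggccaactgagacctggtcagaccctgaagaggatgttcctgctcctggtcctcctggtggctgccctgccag
Hdc: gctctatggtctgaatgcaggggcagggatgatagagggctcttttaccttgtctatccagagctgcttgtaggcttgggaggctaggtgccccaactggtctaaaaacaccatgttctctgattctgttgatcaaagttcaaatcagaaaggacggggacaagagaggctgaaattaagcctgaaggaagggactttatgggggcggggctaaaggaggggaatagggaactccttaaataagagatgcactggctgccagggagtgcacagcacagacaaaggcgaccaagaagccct
Cpa3: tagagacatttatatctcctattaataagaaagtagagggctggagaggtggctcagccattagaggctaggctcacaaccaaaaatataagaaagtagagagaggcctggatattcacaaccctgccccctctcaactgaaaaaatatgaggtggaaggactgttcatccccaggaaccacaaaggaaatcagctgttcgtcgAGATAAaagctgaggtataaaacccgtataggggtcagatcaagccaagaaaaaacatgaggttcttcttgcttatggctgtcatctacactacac
The motif occurred once in the Cpa3 window, 46 bases before the start, and in neither the Mcpt8 nor the Hdc window. Among the other members it occurred in the Fcer1a window, at 3 places in the Ms4a2 window and in both Il1rl1 windows, but not in the Cma1 window. Of 32851 windows of the same length across the genome, 11.2% held it. A match is a string of letters and not evidence of binding.

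Mcpt8, a serine protease of basophil granules and a common marker of mouse basophils, had the widest difference between the group means among the tested members. Its 1 probe (ILMN_1235399) read 9.67, 11.08, 10.79, 8.04 and 10.40 on wild-type arrays 1 to 5. On knockout arrays 1 to 4 it read 7.13, 6.69, 11.11 and 6.71. Wild-type readings were thus all above 7.5, whereas 3 knockout readings were at background and that of knockout array 3 was level with the highest wild-type array. Wild-type arrays averaged 9.99 ± 1.22 (SD, n = 5) and knockout arrays 7.91 ± 2.14 (SD, n = 4). The log2 difference of -2.08 (SE 0.96, 95% interval -4.21 to 0.05) did not pass the limma test (adjusted p = 0.497), nor did the exact test (permutation p = 0.143). Leaving out knockout array 3 moved it to -3.15, a difference from background rather than from a measured level, since the other 3 knockout readings all lay below 7.5. Without knockout arrays 1 and 2 it was -1.08. In sorted bulk RNA, fewer cells carrying a transcript and less of it per cell cannot be told apart. Its residual SD of 1.68 exceeded that of 97.0% of the genes tested, whose median was 0.92.

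Cpa3, the carboxypeptidase of mast cell granules, had 3 probes that did not move the same way. The probe used in the gene test (ILMN_2609590) read 9.82, 7.90, 8.05, 8.69 and 6.87 on wild-type arrays 1 to 5. On knockout arrays 1 to 4 it read 6.29, 10.48, 7.61 and 7.11. The genotypes overlapped, and the highest and the lowest reading both came from knockout arrays. Wild-type arrays averaged 8.27 ± 1.09 (SD, n = 5) and knockout arrays 7.87 ± 1.82 (SD, n = 4), and the log2 difference was -0.39 (SE 0.84, 95% interval -2.26 to 1.47, limma adjusted p = 0.881). Its sign depended on single arrays: leaving out knockout array 1 gave 0.13, leaving out knockout array 2 gave -1.26, and leaving out both gave -0.91.

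A further Cpa3 probe (ILMN_2991799) read 10.84 on knockout array 2 and between 6.80 and 7.88 on the other 8 arrays. Its difference was 1.07 (95% interval -0.60 to 2.74, limma adjusted p = 0.714 over every probe), or 0.23 without knockout array 2. The last probe (ILMN_1246690) read 9.47, 7.81, 8.18, 6.93 and 6.83 on wild-type arrays 1 to 5. No knockout array exceeded 7.04, and wild-type arrays 4 and 5 were at background too. With the knockout set to the background level, the wild-type mean was 1.27-fold above it. This point estimate rests on wild-type arrays 1 to 3. The probe's difference of -0.93 did not pass either (limma adjusted p = 0.680, permutation p = 0.143). It lay between -1.18 and -0.52 with single arrays left out. Knockout array 2 was thus the highest array for both of the other probes and at background for this one. Over the 9 arrays the pairs of Cpa3 probes correlated at 0.62, 0.40 and -0.25, given as a description. For all 7110 pairs of probes of 1 gene that both passed the filter, the median correlation was 0.26 (quartiles -0.10 and 0.605). Only the pair at 0.62 belongs to that set, since ILMN_1246690 did not pass the filter.

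Cma1, the chymase of connective-tissue mast cells also called mast cell protease 5, had 2 probes of opposite sign. The first (ILMN_1225727) read 9.61, 8.93, 7.49 and 7.48 on knockout arrays 1 to 4, and 7.56, 7.25, 7.41, 7.23 and 7.12 on wild-type arrays 1 to 5. Only the readings of knockout arrays 1 and 2, the arrays that stood apart, were clear of the wild-type range. The difference was 1.06 (95% interval 0.04 to 2.08) with a limma p of 0.043 before and 0.655 after adjustment over every probe, and a permutation p of 0.063. Without those arrays it was 0.17. The other probe (ILMN_2997068) read 8.68, 6.97, 8.27, 8.15 and 6.76 on wild-type arrays 1 to 5. The highest knockout reading was 7.21, and wild-type arrays 2 and 5 were at background too. With the knockout set to 7.5, the wild-type mean was 1.2-fold above it. The probe's difference of -0.83 (95% interval -1.77 to 0.11) did not pass (limma adjusted p = 0.667, permutation p = 0.159). It ranged from -1.08 to -0.60 with single arrays left out.

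**Figure D2:**
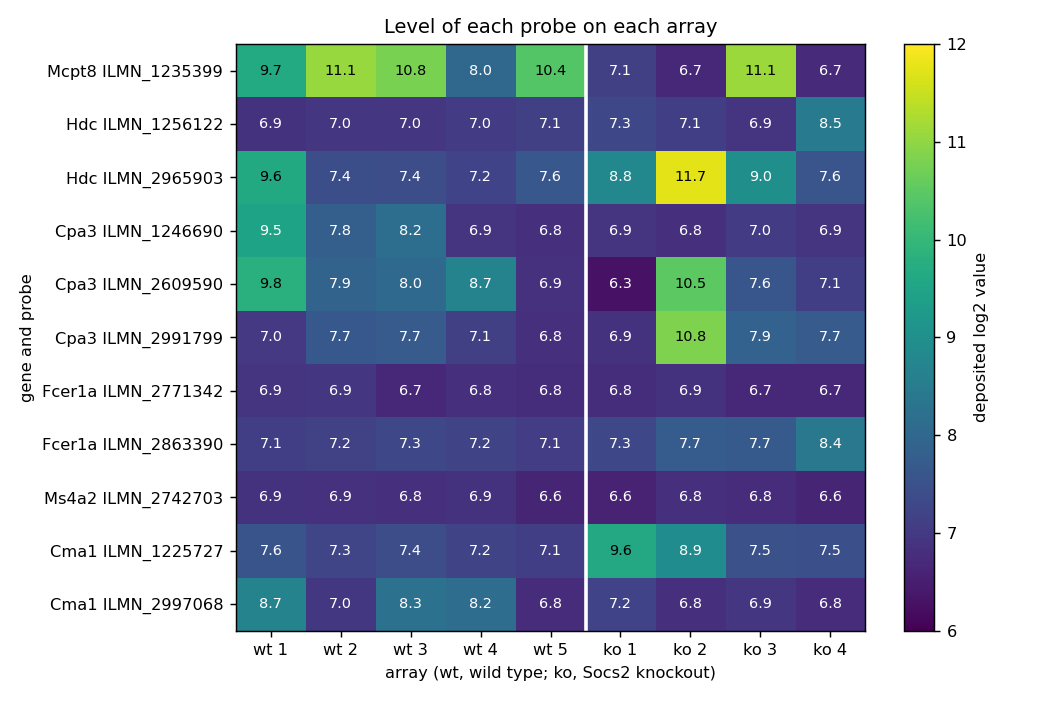
Deposited log2 value of each probe (rows) on each array (columns), with wild-type (wt) arrays left and Socs2 knockout (ko) arrays right of the white line. High readings are scattered: knockout array 2 is highest for 1 Hdc probe and 2 Cpa3 probes, knockout array 3 for Mcpt8, and wild-type array 1 for the remaining Cpa3 probe and 1 Cma1 probe.

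Hdc encodes histidine decarboxylase, the enzyme that makes histamine. Its brighter probe (ILMN_2965903) read 8.81, 11.75, 8.99 and 7.59 on knockout arrays 1 to 4. On wild-type arrays 1 to 5 it read 9.63, 7.43, 7.41, 7.22 and 7.64. All 4 knockout readings were above 7.5, as were those of wild-type arrays 1 and 5, and the groups overlapped through wild-type array 1. Knockout arrays averaged 9.29 ± 1.76 (SD, n = 4) and wild-type arrays 7.87 ± 1.0 (SD, n = 5). The log2 difference of 1.42 (SE 0.81, 95% interval -0.37 to 3.21) did not pass (limma adjusted p = 0.564, permutation p = 0.206). Leaving out knockout array 2 gave 0.60 and leaving out knockout array 4 gave 1.98, while dropping both arrays that stood apart gave 0.42.

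The dimmer Hdc probe (ILMN_1256122) showed another array. It read 8.48 on knockout array 4 and from 6.87 to 7.31 on the other 8 arrays. Its difference of 0.47 (limma adjusted p = 0.698, permutation p = 0.143) shrank to 0.13 without knockout array 4. Both Hdc probes thus had positive differences, from different arrays, and their correlation over the 9 arrays was -0.19.

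The alpha and beta chains of the IgE receptor were near or below background in both genotypes. Fcer1a encodes the alpha chain, which binds IgE. Its brighter probe (ILMN_2863390) read 7.31, 7.74, 7.69 and 8.39 on knockout arrays 1 to 4 and 7.11, 7.17, 7.31, 7.23 and 7.08 on wild-type arrays 1 to 5. Of the knockout readings 3 lay above all wild-type readings, and that of array 1 fell just within their range. The difference of 0.60 (95% interval 0.15 to 1.05) had a limma p of 0.015 and an adjusted p of 0.615 over every probe, with a permutation p of 0.032. At an unadjusted p under 0.05 there were 2 of 11 member probes, this one and the first Cma1 probe, both higher in the knockout, against 7.60% of all probes in either direction. Every wild-type reading was under 7.5. With wild type set to 7.5, the knockout mean was 1.22-fold above it, a small step from background. The difference was 0.86 without knockout arrays 1 and 2 and 0.40 without knockout array 4. The other Fcer1a probe (ILMN_2771342) stayed between 6.66 and 6.94 on all 9 arrays.

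Ms4a2 encodes the beta chain, which amplifies the receptor's signal. Its 1 probe read between 6.59 and 6.88 on the 9 arrays, never above 7.5, so no level and no fold is given. Neither genotype lay fully apart from the other in any of the 11 probes, whereas 3.18% of all probes and 3.70% of the genes tested were fully apart.

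**Figure D3:**
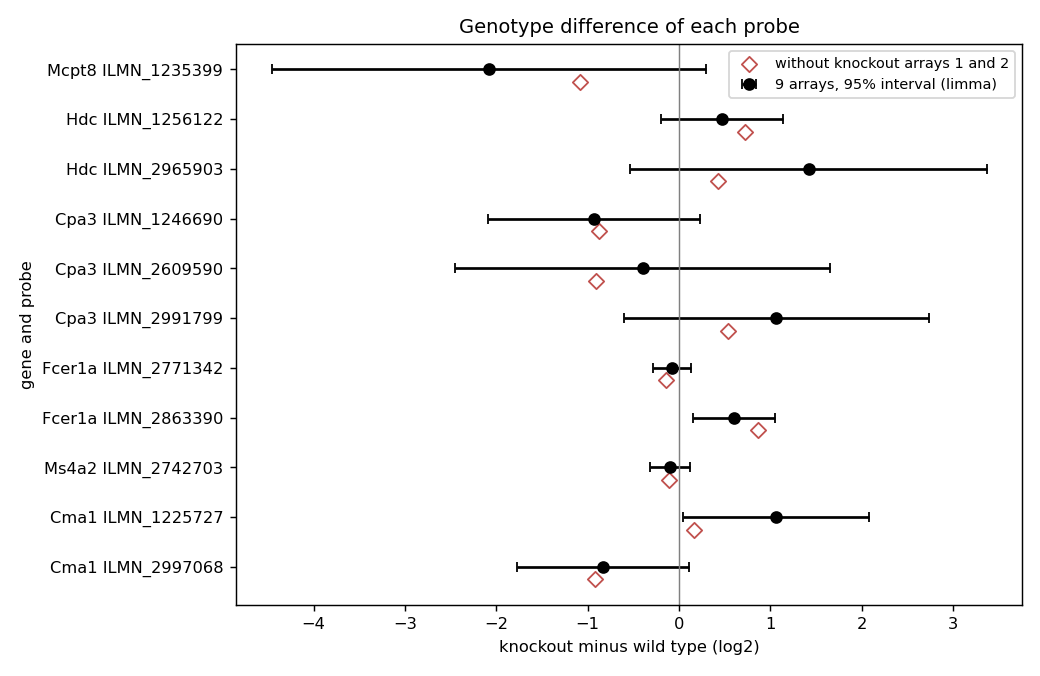
Difference between knockout and wild-type means (horizontal axis, log2) for each of the 11 probes. Black points and bars are the difference over 9 arrays and its 95% interval from the limma fit over every probe, and open diamonds are the difference without knockout arrays 1 and 2. Intervals of 9 probes include 0, and those of Fcer1a ILMN_2863390 and Cma1 ILMN_1225727 do not before adjustment.

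By the probes used in the gene test, Hdc and Cpa3 shared their 2 highest arrays, knockout array 2 and wild-type array 1. Mcpt8 was highest on others. The remaining probes did not share both arrays. On these 2 arrays, in that order, the dimmer Hdc probe read 7.12 and 6.87. Cpa3 ILMN_2991799 read 10.84 and 6.99, and Cpa3 ILMN_1246690 read 6.80 and 9.47. Over 9 arrays, Pearson's r was -0.37 for Mcpt8 and Hdc (permutation p = 0.360), -0.12 for Mcpt8 and Cpa3 (p = 0.743) and 0.63 for Hdc and Cpa3 (p = 0.094). Spearman's rho was -0.25, -0.15 and 0.17 with permutation p of 0.521, 0.708 and 0.678. None of the 3 pairs passed after Benjamini-Hochberg adjustment, the lowest adjusted p being 0.281. The relation of Hdc and Cpa3 rested on knockout array 2 and wild-type array 1, the arrays farthest from the median of Hdc, and r was -0.57 without them. The genes most like each member across the 9 arrays were Rom1 and Gm2381 for Mcpt8 (r = 0.97 for both), Dap and Ldha for Hdc (r = 0.96 for both), and Derl2 and Tmem268 for Cpa3 (r = 0.96 for both). With 9 arrays and 8543 genes, r exceeded 0.7 in 4.59%, 5.12% and 2.79% of genes for Mcpt8, Hdc and Cpa3.

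Genes that work with these members were read from 6 lists, in which 0 genes were called. Granule proteases and storage genes had 14 members, of which 13 had a probe and 3 were tested. Srgn, the proteoglycan core that holds proteases in the granule, was bright and nearly equal, with knockout arrays at 12.13 ± 0.25 (SD, n = 4) and wild-type arrays at 12.10 ± 0.16 (SD, n = 5), a log2 difference of 0.03, or -0.17 without knockout arrays 1 and 2. Ctsg, a protease shared with neutrophil precursors, had a log2 difference of -1.58 (SE 0.80, limma adjusted p = 0.521), or -1.36 without those arrays. Slc18a2, which loads histamine into granules, had -0.66 (limma adjusted p = 0.788), or 0.70 without knockout arrays 1 and 2. Of the 10 genes not tested, 5 were never above 7.5, namely Mcpt1, Mcpt2, Mcpt9, Tpsab1 and Gzmb, named here after their values were seen. Among enzymes of histamine, eicosanoids and serotonin, 1 of the 7 with a probe was tested. It was Alox5ap, which presents arachidonate to 5-lipoxygenase, with a difference of 0.37 (SE 0.33, limma adjusted p = 0.690), or 0.62 without knockout arrays 1 and 2.

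Signalling genes downstream of the IgE receptor and of ST2 had 14 tested members, 5 with positive and 9 with negative differences, and a median of -0.25. Over all genes the median was -0.18, and 59.5% of differences were negative. One member was higher at an unadjusted p under 0.05 and 0 were lower, against 2.29% and 7.87% of all genes. It was Plcg2, a phospholipase C, with a log2 difference of 1.29 (SE 0.55, limma adjusted p = 0.477), or 0.81 without knockout arrays 1 and 2. Inpp5d, the phosphatase SHIP1, which restrains degranulation, had 1.35, or 0.82 without knockout array 2 and 0.73 without both arrays that stood apart. The adaptor Lcp2 had -1.06, or 0.06 without knockout arrays 1 and 2, and the ligase Traf6 had -1.61, or -0.44 without them. Fcer1g, the gamma chain of the IgE receptor that other Fc receptors share, is named outside the ranking and after its values were seen. It was above 7.5 on all 9 arrays, from 7.72 on knockout array 1 to 12.37 on wild-type array 1, and its difference of -0.97 became -0.19 without knockout array 1 and -0.23 when knockout array 2 was dropped too. The median of these signalling genes was 0.16 without knockout arrays 1 and 2, where that of all genes was -0.03.

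Transcription factors of these lineages had 5 positive and 5 negative differences among 10 tested. Their median of -0.03 had no stable sign: dropping knockout array 1 gave 0.12, dropping knockout array 2 gave 0.097 and dropping both gave 0.09, while dropping wild-type array 2 or 5 gave 0.025 or 0.019. Runx1 had -1.25 (SE 0.65, limma adjusted p = 0.533), or -0.42 without knockout arrays 1 and 2. Spi1, the factor PU.1, had 0.83, or -0.10 without them, and Bhlhe40 had -0.92, or 0.15 without them. Stat5b, a transducer of interleukin 3 signals on which SOCS proteins act, had 0.21, or 0.26 without knockout arrays 1 and 2, and dropping wild-type array 1 gave 0.084. Gata2, required for mast cell and basophil development, is also named outside the ranking. It was above 7.5 on all 9 arrays, from 7.91 to 11.63 in the knockout and from 8.21 to 11.55 in wild type, with a difference of -0.58 that was 0.11 without knockout array 2 and -0.37 when knockout array 1 was dropped too.

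Surface receptors of mast cells, basophils and their progenitors had 1 positive and 6 negative differences among 7 tested, where 59.5% of all genes were negative. The median was -0.37, or 0.27 without knockout arrays 1 and 2. Csf2rb, the shared chain of the receptors for interleukins 3 and 5, had -1.21 (SE 0.61, limma adjusted p = 0.522), or -0.20 without those arrays. The Fc receptors Fcgr2b and Fcgr3 had -0.51 and -0.45, which became 0.27 and 0.53. The integrin chain Itgb7, found on mast cell progenitors, had -0.37, or 0.43 without knockout array 1 and -0.14 without both. Of the cytokines these cells make, 1 of 8 was tested, Ccl4, with -1.51 (SE 0.84, limma adjusted p = 0.557), or -0.79 without knockout arrays 1 and 2, and dropping wild-type array 4 gave -0.996.

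**Figure D4:**
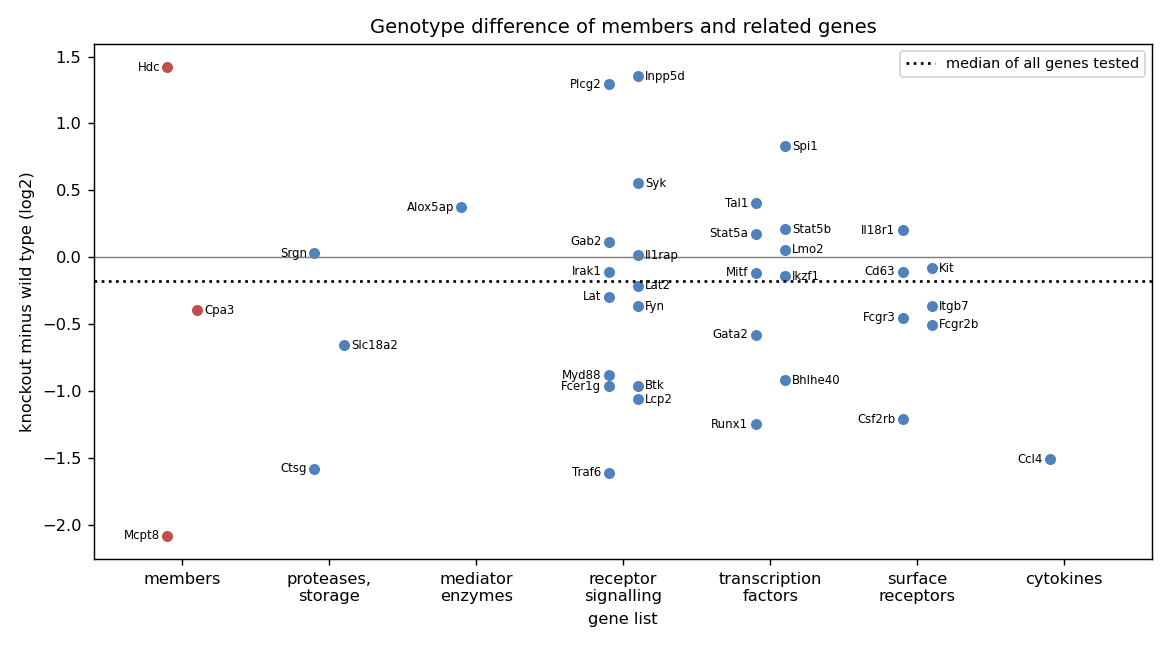
Difference between knockout and wild-type means (vertical axis, log2) for the 3 tested members (red) and the tested genes of 6 related lists (blue), with 1 point per gene. The dotted line is the median of all genes tested, -0.18. Members and related genes lie on both sides of it, from -2.08 for Mcpt8 to 1.42 for Hdc.

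The labelled cell type was checked with 9 LSK markers, of which 7 had a probe and all 7 were above 7.5 on at least 4 arrays. Kit was above it on 8 arrays and read 6.84 on knockout array 2. The markers of other marrow cells included 6 eosinophil genes with a probe. Of these Prg3, Ccr3 and Il5ra were never above 7.5, and Prg2, a granule protein that basophils also express, read 10.50 to 11.49 on knockout arrays 2 and 3 and wild-type arrays 3 and 5 and at most 7.30 on the rest. The mean log2 level over the eosinophil list ran from 6.80 to 7.52 in the knockout and from 6.86 to 7.70 in wild type. For 10 genes of neutrophils and their progenitors it ran from 7.42 to 8.52 and from 7.62 to 9.32, with Elane never above 7.5. The erythroid list ran from 9.07 to 10.06 in the knockout and from 8.43 to 9.32 in wild type. Within it the globin gene Hba-a1 read 8.92 to 13.32 on knockout and 6.84 to 9.10 on wild-type arrays. The other globin gene, Hbb-bt, read 10.34 to 13.20 and 10.82 to 11.80. Klf1, Car1 and Car2 overlapped between genotypes as well, and Epor was never above 7.5. The monocyte and macrophage list ran from 8.65 to 10.12 and from 8.95 to 10.08. Its receptor gene Csf1r was fully apart, at 8.94 to 10.04 in the knockout and 6.94 to 8.30 in wild type. Over all genes tested, 3.70% were fully apart, and the genotypes overlapped in Lyz1, Lyz2, Adgre1, Ccr2 and Irf8 of the same list. The remaining lists, of megakaryocytes, B cells and T and NK cells, overlapped likewise, from 8.38 to 8.66 against 8.35 to 9.25, from 7.37 to 8.93 against 7.495 to 8.49 and from 6.94 to 8.40 against 7.36 to 8.87. In none of the 8 marker lists were the genotypes apart in this mean, and 0 markers were called. The part of such cells in the readings of the members was not tested.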

How the data were processed

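Expression was measured on 9 Illumina mouse bead arrays, after 250 pg of total RNA per sample was amplified, per the labels' protocols. The values the authors deposited run on a log scale and were taken as log2. The submitters' processing notes name the R package lumi. For background correction, transformation and normalization, no label or file header used here states the method, so folds of dim probes may be compressed. A second table was not used, because no label maps the chip positions that name its 18 value columns. Groups and replicate numbers came from sample titles.

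Of 45281 probes, 34885 had 1 gene symbol, 18 several and 10378 none. Entrez identifiers of 34807 were found in the gene table given, which altered 0 symbols. Probes above 7.5 on at least 4 of 9 arrays entered, and the one with the highest mean stood for its gene (8543 genes). The comparison of genotypes used limma 3.58.1 (lmFit and eBayes, no covariate, two-sided, Benjamini-Hochberg adjustment, threshold 0.05) in R 4.3.3. A second fit took in every probe. For folds of dim probes, a group wholly at or below 7.5 was set to 7.5 and the other group's mean compared with it. Such folds are point estimates. Tested on simulated data of 8543 genes, the fit recovered 0 of 50 genes given a log2 change of 1, and 20, 34 and 44 of 50 given changes of 2, 3 and 4. It made 4 false calls. Precision is limited by how few arrays there are.

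The members and lists were chosen with earlier results of these data known. Named genes were the members, the 2 genes most correlated with each tested member and up to 4 genes with the smallest p in each list. Promoter sequences are from RefSeq (GRCm38.p6), where all 7 genes matched. Alternatives covered the filter, scaling, weights, variance model, choice of probe, block and arrays left out.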

Additional observations from a re-analysis of the deposited data

Results flagged for a closer look

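In 3 of the 22 groups of readings (11 probes in 2 genotypes), 1 array lay far from the others of its group, where chance gives about 1 in 20. Mcpt8 read 11.11 on knockout array 3, the next knockout reading being 7.13. The brighter Hdc probe read 9.63 on wild-type array 1, the next wild-type reading being 7.64. Ms4a2 read 6.61 on wild-type array 5 and 6.84 on the next lowest array, both below 7.5.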

How the results depend on the processing

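Under the alternatives run, 0 of the members were called, and adjusted p for Mcpt8, Hdc and Cpa3 ran from 0.099 to 0.998. Mcpt8 stayed negative and Hdc positive in all 19 alternatives of each, but not all of these could turn a sign. Removing the filter, changing the minimum and the variance trend left both differences unchanged. The mean of all probes left that of Mcpt8 unchanged, which has 1 probe. Leaving out single arrays gave -3.15 (without knockout array 3, with the other knockout readings at background) to -1.68 for Mcpt8, 0.60 to 1.98 for Hdc and -1.26 to 0.13 for Cpa3, whose sign turned without knockout array 1. The mean of all probes gave 0.94 for Hdc and -0.08 for Cpa3, and array weights gave -1.49 for Mcpt8. The correlations of same-numbered arrays' deviations lay between -0.07 and 0.04, so no strong effect shared by replicate number was seen. They cannot settle whether the arrays were paired. With the replicate number as a block, the count over all genes was 0, and Mcpt8 had -1.98, Hdc 1.36 and Cpa3 -0.74, which changed no member's call. No member could be tested with values above 7.5 on all 9 arrays. Centring arrays on their median, chosen after seeing the data for single probes, gave 0.043 for Fcer1a ILMN_2771342 and 0.012 for Ms4a2 ILMN_2742703, both at background. The count over all genes was 1, 2 where no filter was set, and 3 where 9 of 9 arrays had to exceed 7.5. It was 0 with the variance trend, with the mean of all probes, with centred arrays and without knockout arrays 1 and 2, and 0 to 7 with single arrays left out (7 without wild-type array 3). Correlations changed sign without knockout arrays 1 and 2 for Mcpt8 and Hdc (0.23) and for Mcpt8 and Cpa3 (0.0029), and without the 2 arrays farthest from the median for Mcpt8 and Cpa3 (0.16) and for Hdc and Cpa3 (-0.57). The causes were not tested. Signal near background limits Fcer1a, Ms4a2 and Cma1.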

Other observations

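Of the 37 genes of the related lists that were too dim to be tested, 21 stood above 7.5 on at least 1 array. Their highest reading fell on a knockout array for 13 and on a wild-type array for 8. By array this was 4, 3, 4 and 2 on knockout arrays 1 to 4, and 2, 2, 0, 4 and 0 on wild-type arrays 1 to 5. The same share over all dim genes was not computed, so these counts are a description only. The genes given here are named because their values were seen. Prss34, a serine protease of basophils, read 9.19 on knockout array 4 and at most 7.23 on the other 8 arrays. The dimmer Hdc probe (8.48) and the brighter Fcer1a probe (8.39) had their highest readings on the same array, where Mcpt8 read 6.71. The brighter Hdc probe had its lowest knockout reading there, 7.59, and Ms4a2 read 6.63. Cpa3 read 7.11 by ILMN_2609590, 7.72 by ILMN_2991799 and 6.90 by ILMN_1246690. The surface molecule gene Cd200r3 (7.08) and Il4 (6.69) were at background on it. On knockout array 3, where Mcpt8 read 11.11, the protease gene Mcpt4 read 8.05, the tryptase gene Tpsb2 8.44 and the integrin gene Itga2 8.45. Cma2 (7.87), Ndst2 (8.17) and Ltc4s (8.49) were above 7.5 there too. The protease genes Mcpt1 (6.64), Mcpt2 (6.79), Mcpt9 (6.92), Tpsab1 (6.88) and Prss34 (6.86) were at background on that array. So were Cd200r3 (7.06) and Il4 (6.81). Tpsb2 also read 7.68 on wild-type array 3. Other genes peaked elsewhere, the cytokine gene Il13 at 8.55 and the receptor gene Mrgprb2 at 8.16 on knockout array 1, Il4 at 8.16 on wild-type array 1, Tnf at 8.46 on wild-type array 2 and the lipoxygenase gene Alox5 at 8.33 on wild-type array 4.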
